A study of Arabidopsis thaliana with 12 samples.

Results

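The comparison described here set the 2 arrays of ms35 anthers labelled bicellular against the 2 arrays of wild type anthers of the same label, 4 of the 12 arrays of the study. The members were taken from the labels alone: genotype, and the bicellular stage, whose array titles name flower set 6.7. RNA came from anther and filament of Arabidopsis thaliana and was hybridised to Affymetrix ATH1 arrays, on which short oligonucleotide probes are grouped into probe sets. The ms35 plants are labelled as a knock-out in the Ler-0 background, and the wild type arrays name Ler in their titles, Glabra as their source and N64 as their stock code. The background of the wild type is therefore not settled by the labels, and each difference below is one between these lines. Growth was at 22 °C in a cycle of 22 h light and 2 h dark for both lines. The remaining 8 arrays, 2 per genotype at the stages labelled PMI and PMII (pollen mitosis I and II), entered the estimate of the spread and served as a second look at the same genes. Stage names are used as labelled. The order of the stages is in doubt, because late pollen genes summed to 2687 and 3213 in ms35 and 3995 and 3996 in wild type on the arrays labelled PMI, and to 354 and 489 in ms35 and 403 and 483 in wild type on those labelled PMII. Tapetum genes, which act early, ran the other way, with 593 and 417 in ms35 and 349 and 292 in wild type at PMI, and 10027 and 6070 in ms35 and 6201 and 6750 in wild type at PMII.

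MYB26, the gene altered in ms35, encodes a transcription factor of the R2R3 MYB family. In wild type anthers it acts in the endothecium, the cell layer beneath the epidermis, whose cells lay down bands of secondary wall made of cellulose, xylan and lignin. Shrinkage of this banded layer opens the anther, and ms35 anthers make viable pollen but stay closed. NST1 and NST2, NAC transcription factors that switch on secondary wall genes, act below MYB26. None of these 3 genes has a named probe set in the annotation used, so the altered gene itself was not analysed here. The samples are mixtures of the whole anther and its filament, in which fewer cells of a type and less RNA per cell cannot be told apart.

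The mutant arrays differed more between themselves than the wild type arrays did. The correlation of log2 signal across probe sets was 0.899 between the ms35 arrays and 0.937 between the wild type arrays, against 0.854 to 0.902 across genotypes. On the first principal component of all 12 arrays (46.2% of the variance), which follows the labelled stages, ms35 replicate 1 lay at 28.3 and ms35 replicate 2 at -19.0, with wild type at 22.5 and 36.1. The arrays labelled PMI lay between -93.2 and -61.7, and those labelled PMII between 46.5 and 83.1. The ratio of 3' to 5' signal of the GAPDH control, a sign of RNA integrity, was 1.58 and 2.37 in ms35, against 1.72 and 1.5 in wild type. ms35 replicate 2 thus stands apart from the other 3 bicellular arrays. Genes with a symbol that lost their call without it are named after the counts. Nothing in the labels says that the replicates are separate plants. The p-values therefore rest on the spread among these arrays, part or all of which may be technical.

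Most genes that separated the genotypes were lower in ms35. Of 16464 tested probe sets 291 passed (1.77%), 66 of them higher (0.401%) and 225 lower (1.37%) in ms35. A probe set was called when its Benjamini-Hochberg adjusted p from limma, a linear model with variances shared across probe sets, was under 0.05. It was tested when its signal exceeded 25.5, called the low-signal limit here, on at least 2 of the 12 arrays. All 291 calls had groups that did not overlap, as did 6693 of all tested probe sets (40.7%). The lower calls had a median log2 change of -1.89 and sizes up to 8.08, and the higher calls a median of 1.77 and sizes up to 5.11, where the median over all tested probe sets was 0.01. Log2 changes were computed as log2(signal + 2.23), ms35 minus wild type, and understate the change of dim genes. Among the lower calls 66 differed by at least 8-fold, and 61 (27.1%) were under the low-signal limit on both ms35 arrays. Among the higher calls 18 differed by at least 8-fold, and 19 (28.8%) were under the limit on both wild type arrays.

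**Figure D1:**
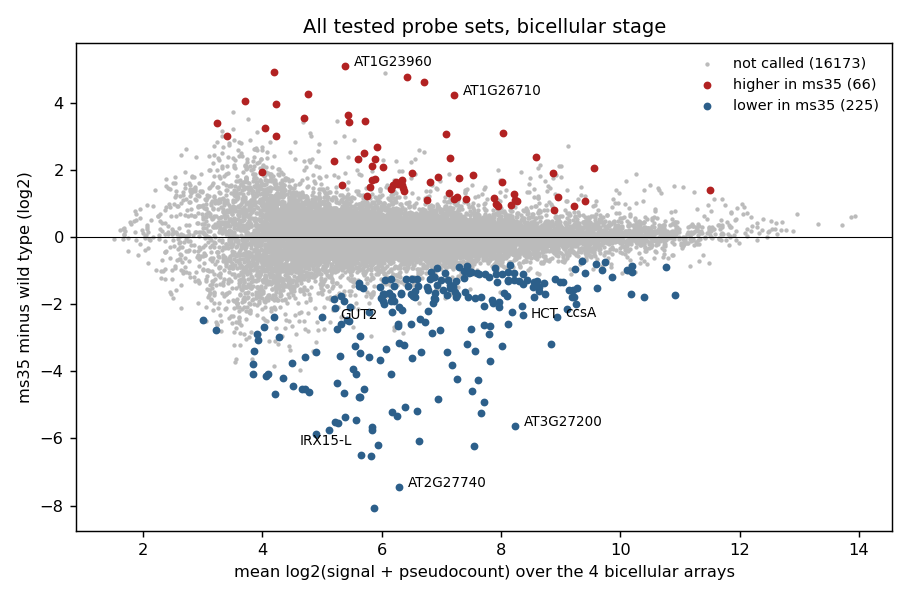
Each point is 1 of the 16464 tested probe sets, with mean log2 signal over the 4 bicellular arrays on the horizontal axis and the log2 change, ms35 minus wild type, on the vertical axis; red points were called higher (66), blue points called lower (225) and grey points not called. The blue points reach -8.08 and the red points 5.11.

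The count depends on which arrays are kept. Without ms35 replicate 2, 206 probe sets were called, 29 higher and 177 lower, and 165 of the 291 calls remained. Without wild type replicate 1 the count was 150, and without wild type replicate 2 it was 97, so it fell furthest without a wild type array. Some genes with a symbol described below lost their call without ms35 replicate 2. They were 9 lower ones (ATL63, SWEET1, ACLA-1, ACLB-1, RALFL24, SBE2.2, RL2, PRA1.B4 and CYB-1) and 3 higher ones (NCLPP7, TRY and WSD1). Their direction was kept, but leaving out an array cannot reverse it where groups do not overlap. Calls were also lost without ms35 replicate 1, among them those of GUT2, TBL45, SCPL34 and ETFBETA, which were kept without replicate 2. Losing calls is therefore not particular to leaving out replicate 2.

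The 4 largest decreases among single-gene probe sets belonged to loci that were strong in wild type and near the bottom of the scale in ms35. The gene table gives them no name beyond the locus, and no role is stated for them. AT2G27740 had a signal of 2.59 and 4.97 in ms35, against 983 and 1076 in wild type, a log2 change of -7.45 ± 0.37 (SE; limma adjusted p = 1.80e-06). AT1G33700 had 3.95 and 2.35 in ms35, against 529 and 426 in wild type (-6.49 ± 0.45). In both genes, the mutant signal lay under the low-signal limit on each array while the wild type signal was well above it.

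AT1G24030 had 9.27 and 2.26 in ms35 and 485 and 555 in wild type (-6.18 ± 0.56). AT4G39320 had 1.48 and 1.89 in ms35 and 193 and 267 in wild type (-5.88 ± 0.81), and lost its call without wild type replicate 2 (adjusted p = 0.0684). Further down the same ranking, AT3G27200 kept a measurable signal in ms35, 32.3 and 50.5, against 1910 and 2349 in wild type (-5.64 ± 0.30). AT3G56230 fell by 5.33 ± 0.67, AT4G27435 by 4.83 ± 0.38 and AT5G47530 by 3.94 ± 0.55 on the log2 scale. In each of these loci every ms35 value lay under every wild type value, as in all 225 lower calls. The loci were picked from calls without overlap, so this is no further evidence for them.

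Of the genes known to act on secondary walls, those that passed were all lower in ms35. Of the 21 listed regulators of secondary wall formation, 1 had a named probe set. It was AT1G66810, annotated as AtC3H14, a CCCH zinc finger protein that activates secondary wall genes. Its signal was 15.8 and 1.40 in ms35, against 377 and 439 in wild type, and it fell by 5.66 ± 0.61 on the log2 scale (limma adjusted p = 0.000375). The gene was below the low-signal limit in both mutant arrays and clearly detected in both wild type arrays.

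Xylan, the main hemicellulose of these walls, is built on a backbone extended by the glycosyltransferases GUT2 (IRX10) and GUT1 (IRX10-L), with IRX15 and IRX15-L also required and TBL34 adding acetyl groups. These were the 5 tested genes of 22 on the list of secondary wall cellulose and xylan genes. Of them 2 fell and none rose, where 1.37% of all tested probe sets were called lower. All 5 had negative changes with a median of -2.54, against 48.5% negative and a median of 0.01 over all tested probe sets. IRX15-L had 16.1 and 1.08 in ms35, against 392 and 440 in wild type (-5.75 ± 0.78, adjusted p = 0.00190). GUT2 had 24.0 and 53.6 in ms35, against 123 and 206 in wild type (-2.08 ± 0.43, adjusted p = 0.0282). The ms35 arrays were below the wild type arrays for both genes, by a wide margin for IRX15-L and a narrower one for GUT2. The call of GUT2 was lost in 5 alternatives, with the highest adjusted p (0.325) without wild type replicate 2.

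The other xylan genes did not pass. IRX15, the close relative of IRX15-L, had 2.34 and 6.31 in ms35 and 62.7 and 144 in wild type (-3.96 ± 0.95, adjusted p = 0.0662). TBL34 had 6.67 and 15.2 in ms35 and 73.4 and 66.9 in wild type (-2.54 ± 0.66, adjusted p = 0.0972). The 2 genotypes did not overlap in either gene. GUT1 had 138 and 154 in ms35, against 143 and 196 in wild type (-0.20 ± 0.21, adjusted p = 0.830), and here the arrays of the genotypes interleaved. Within the broader family of trichome birefringence-like proteins, which acetylate wall polysaccharides, 1 of 18 tested members was called, against 1.77% of all tested probe sets. That member, TBL45, had 38.7 and 58.9 in ms35, against 144 and 175 in wild type (-1.69 ± 0.35, adjusted p = 0.0281), a call lost in 5 alternatives (highest adjusted p = 0.256, without wild type replicate 2). Of the 18 members 14 had positive changes, and the median over the family was 0.17.

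HCT and AT3G13610, enzymes that act on phenylpropanoids, were both lower in ms35. HCT, which transfers the hydroxycinnamoyl group on the way to lignin units, had 155 and 161 in ms35, against 645 and 676 in wild type (-2.05 ± 0.25, adjusted p = 0.000836). It was the only tested gene of the 19 on the lignin list. AT3G13610, annotated as F6'H1, which makes coumarins, had 1.05 and 4.66 in ms35, against 258 and 248 in wild type (-5.75 ± 0.60, adjusted p = 0.000307). The 2 mutant values nearly coincide in HCT and stay well detected, whereas those of AT3G13610 lay below the low-signal limit.

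AT3G23840, annotated as CER26-LIKE and related to proteins that lengthen very-long-chain fatty acids, belongs with HCT to the BAHD type of acyltransferases. It had 103 and 66.5 in ms35, against 558 and 481 in wild type (-2.61 ± 0.29, adjusted p = 0.000439). HCT and AT3G23840 were the 2 members called among the 5 tested acyltransferases of this type (1.77% over all tested probe sets). UGT74F1, which adds glucose to salicylic acid, was the 1 called member of 27 tested UDP-glycosyltransferases, where 1.77% of all tested probe sets were called. A count of 1 does not set the family apart. The signal of UGT74F1 was 4.5 and 42.5 in ms35, against 257 and 322 in wild type (-4.06 ± 0.64, adjusted p = 0.00526). The mutant replicates were far apart and both well under wild type. The call was lost with only the bicellular arrays in the fit (adjusted p = 0.0808) and without wild type replicate 2 (0.0788).

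ATP-citrate lyase, which cleaves citrate in the cytosol to give acetyl-CoA for waxes, flavonoids and fatty acid elongation, was lower in ms35 through 3 of its 4 tested genes, where 1.37% of all tested probe sets were called lower. This family was not among those first planned and was chosen with earlier results of these data known. The count therefore describes these genes and is no test of the family. The enzyme is built of A and B subunits. ACLA-2 had 218 and 222 in ms35, against 602 and 639 in wild type (-1.49 ± 0.17, adjusted p = 0.000645). ACLA-1, the brighter probe set, had 1260 and 1287 in ms35, against 2246 and 2524 in wild type (-0.90 ± 0.18, adjusted p = 0.0260). For the B subunit, ACLB-1 had 657 and 667 in ms35, against 1148 and 1060 in wild type (-0.74 ± 0.17, adjusted p = 0.0487). Replicates of these genes lay close together in ms35, and no mutant value reached a wild type value.

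The fourth gene, ACLA-3, had 157 and 109 in ms35 and 169 and 186 in wild type (-0.43 ± 0.23, adjusted p = 0.566). Of the 3 calls, ACLA-2 held in every alternative run. ACLA-1 was lost in 7 of 23 (highest adjusted p = 0.255, without wild type replicate 2) and ACLB-1 in 17 of 23 (highest 0.256, without wild type replicate 1).

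USP, SBE2.2 and SWEET1, which act on sugars or starch, were lower in ms35; the first 2 were picked because they were called and carry a symbol. USP, the enzyme that forms UDP-sugars, the donors for wall polysaccharides, had 320 and 335 in ms35, against 775 and 898 in wild type (-1.34 ± 0.17, adjusted p = 0.00114). SBE2.2, a starch branching enzyme, had 85.0 and 78.1 in ms35, against 217 and 260 in wild type (-1.52 ± 0.30, adjusted p = 0.0216). SWEET1, a glucose transporter, was the 1 called member of 15 tested sugar transporters, where 1.77% of all tested probe sets were called. Of the 15, 9 had positive changes. SWEET1 had 652 and 533 in ms35, against 1005 and 1345 in wild type (-0.98 ± 0.22, adjusted p = 0.0474). The genotypes did not overlap in any of the 3 genes, as in every called probe set. The calls differed in how well they held: USP kept its call in all 23 alternatives, SBE2.2 lost it in 5 and SWEET1 in 15.

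TUB6 and ATMAP65-6, proteins of microtubules, which guide the deposition of wall bands, were both lower in ms35. TUB6, a beta-tubulin, had 235 and 234 in ms35, against 673 and 881 in wild type (-1.70 ± 0.19, adjusted p = 0.000419). It was the 1 called member of 7 tested tubulin genes, where 1.77% of all tested probe sets were called. Of the 7, 6 had negative changes with a median of -0.36, against 48.5% negative over all tested probe sets. ATMAP65-6, of the MAP65 family of microtubule-bundling proteins, had 81.9 and 85.9 in ms35, against 231 and 259 in wild type (-1.52 ± 0.22, adjusted p = 0.00291). In both genes the mutant replicates are near-identical and lie under both wild type values. ATMAP65-6 lost its call without wild type replicate 2 (adjusted p = 0.0556).

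A further 7 genes with a symbol were called lower. ATL63, of a family of RING-type ubiquitin ligases, had 1.42 and 1.14 in ms35, against 47.2 and 68.0 in wild type (-4.07 ± 0.83, adjusted p = 0.0269). MOB1-like, a relative of kinase regulators, fell by 1.79 ± 0.27, and RALFL24, of a family of secreted signalling peptides, by 1.68 ± 0.37 on the log2 scale. SCPL34, a serine carboxypeptidase-like protein, fell by 1.33 ± 0.24. RL2, a relative of the membrane-shaping GTPase RHD3, and PRA1.B4, a prenylated Rab acceptor protein, each fell by 1.26 (SE 0.24 and 0.26). CYB-1, of the cytochrome b561 family, fell by 0.87 ± 0.19. Each of these 7 lost its call in at least 1 alternative, MOB1-like in 1 and CYB-1 and RALFL24 in 13 of the 23.

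**Figure D2:**
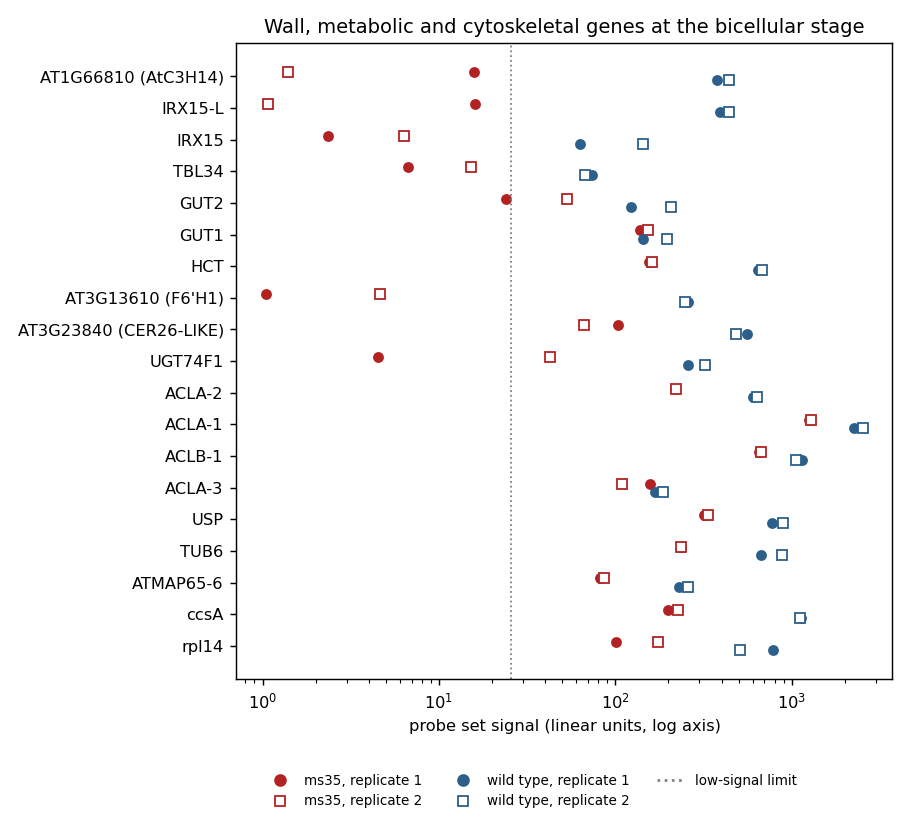
Signal of 19 genes on the 4 bicellular arrays, on a log axis, with ms35 in red above wild type in blue for each gene, circles for replicate 1 and squares for replicate 2; the dotted line is the low-signal limit of 25.5. The ms35 values lie left of the wild type values for all but GUT1, where they interleave, and the gap is wide for AT1G66810, IRX15-L and AT3G13610.

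Of 67 tested plastid-encoded genes 2 fell and none rose, where 1.37% of all tested probe sets were called lower. So few calls do not set the group apart, and its median change was -0.05. ccsA, needed to attach haem to c-type cytochromes, had 198 and 226 in ms35, against 1126 and 1111 in wild type (-2.39 ± 0.18, adjusted p = 2.06e-05). rpl14, a plastid ribosomal protein, had 101 and 175 in ms35, against 785 and 507 in wild type (-2.23 ± 0.32, adjusted p = 0.00291). Both held in every alternative run. Other ribosomal protein genes of the plastid did not follow rpl14: rpl16 had a change of -0.41, rpl22 of -0.28 and rpl36 of -0.23, none of them called.

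The 66 higher probe sets included 36 with a single gene, of which 5 carry a symbol. AT1G23960 led them, with 271 and 220 in ms35, against 10.0 and 1.92 in wild type (5.11 ± 0.78, adjusted p = 0.00431). AT1G26710 had 986 and 413 in ms35, against 31.5 and 32.5 in wild type (4.23 ± 0.51, adjusted p = 0.000836). AT3G10720 had 307 and 334 in ms35, against 73.2 and 50.1 in wild type (2.36 ± 0.29, adjusted p = 0.00102). AT1G23960 was under the low-signal limit in wild type, and the other 2 loci were above it in all 4 arrays. The call of AT1G23960 was lost without wild type replicate 2 (adjusted p = 0.0681), while AT1G26710 and AT3G10720 held in every alternative run.

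Of the 5 genes with a symbol, CHX20, a cation/proton exchanger known from guard cells, rose most. It had 57.4 and 107 in ms35, against 14.97 and 14.1 in wild type (2.27 ± 0.32, adjusted p = 0.00231). WSD1, a wax ester synthase, had 108 and 160 in ms35, against 39.0 and 42.0 in wild type (1.65 ± 0.29, adjusted p = 0.0116). ETFBETA, a mitochondrial electron transfer flavoprotein subunit, had 280 and 140 in ms35, against 57.3 and 65.9 in wild type (1.65 ± 0.30, adjusted p = 0.0144). The mutant replicates are well apart in CHX20 and ETFBETA, and the wild type replicates lie close together in all 3 genes. The genotypes do not overlap, as in every called probe set.

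TRY, a small MYB protein that represses trichome formation, had 61.5 and 73.2 in ms35, against 23.0 and 20.02 in wild type (1.55 ± 0.31, adjusted p = 0.0262). NCLPP7, a proteolytic subunit of the mitochondrial Clp protease, had 330 and 345 in ms35, against 174 and 164 in wild type (0.99 ± 0.18, adjusted p = 0.0159). The genotypes did not overlap in either gene, as in every called probe set. Each of the 5 genes lost its call in 1 to 6 alternatives, with the highest adjusted p at 0.209 for TRY without wild type replicate 2.

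Among the 66 higher calls, ms35 replicate 2 was at least 2-fold above replicate 1 in 6, and replicate 1 at least 2-fold above replicate 2 in 4. Of these, AT1G78460 and AT5G50030 are given here. AT1G78460 had 191 and 1035 in ms35, against 12.4 and 16.3 in wild type (4.76 ± 0.87, adjusted p = 0.0139). AT5G50030 had 257 and 1041 in ms35, against 21.1 and 17.0 in wild type (4.62 ± 0.97, adjusted p = 0.0324). Replicate 2 was the higher mutant array in both, and both lost their call without it (adjusted p = 0.120 and 0.243). On the arrays labelled PMI these loci were bright in both genotypes: AT1G78460 had 1719 and 2648 in ms35, against 762 and 447 in wild type, and AT5G50030 had 1886 and 2086 in ms35, against 331 and 544 in wild type. Late pollen genes, given further on, were also higher in ms35 replicate 2 and on the PMI arrays, and their part in these results was not tested.

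**Figure D3:**
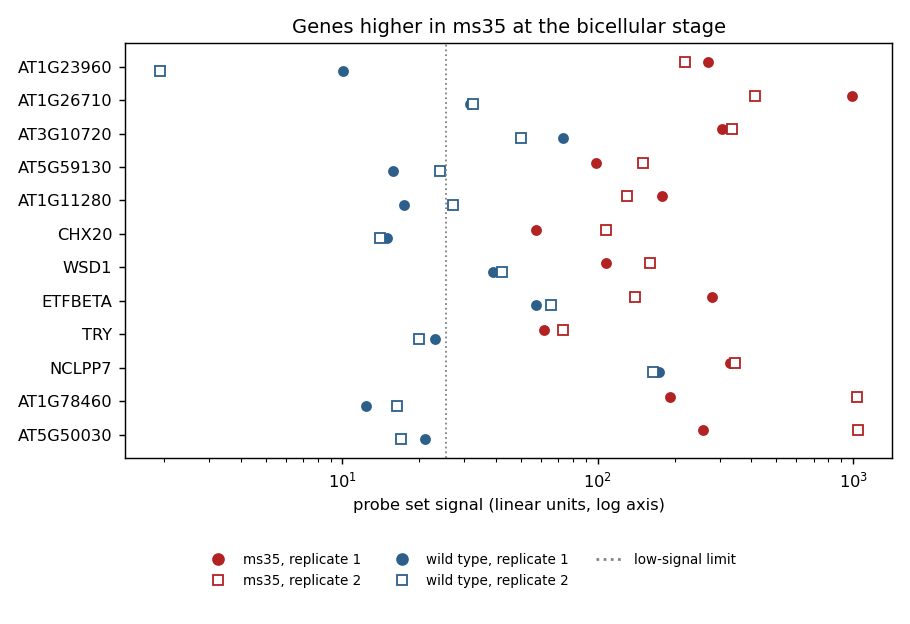
Signal of 12 genes called higher in ms35 on the 4 bicellular arrays, on a log axis, with ms35 in red above wild type in blue, circles for replicate 1 and squares for replicate 2; the dotted line is the low-signal limit of 25.5. Every ms35 value lies right of every wild type value, and the ms35 replicates of AT1G78460 (191 and 1035) and AT5G50030 (257 and 1041) are the most widely spread.

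Probe sets to which the annotation gives no gene made up 120 of the 225 lower calls and 28 of the 66 higher calls. They are given by their identifiers. The largest decrease of all was 257896_at, with 1.96 and 0.795 in ms35, against 776 and 1197 in wild type (-8.08 ± 0.52, adjusted p = 7.62e-06). 254618_at followed with 2.49 and 5.16 in ms35, against 471 and 612 in wild type (-6.51 ± 0.54). Among the increases, 252459_s_at had 89.7 and 109 in ms35, against 1.47 and 0.779 in wild type (4.92 ± 0.48, adjusted p = 0.000170). In each of these 3 probe sets one genotype was under the low-signal limit on both arrays, and each call held in every alternative run.

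The arrays labelled PMI and PMII, from other samples of the same lines, gave values that the bicellular arrays did not enter, although 1 model supplied the spread for all stages. Of the 225 probe sets lower at the bicellular stage, 191 were also negative at PMI and 193 at PMII, with medians of -0.80 and -0.90. Over all tested probe sets, 44.3% were negative at PMI and 51.9% at PMII. At PMI 2.03% of all tested probe sets were called in either direction (1.03% lower), and at PMII 0.948% (0.516% lower). Of the 225, 65 were called lower at PMI, 48 at PMII and 17 at both. Calls in the opposite direction numbered 2 at PMI and 0 at PMII. Of the 66 higher probe sets, 30 were called higher at PMI (1.00% of all tested) and 28 at PMII (0.431%), 20 of them at both, with medians of 1.3 and 1.28. Called at the bicellular stage and at neither other stage were 127 of the lower and 28 of the higher probe sets, although failing to pass there does not show that the genotypes were equal.

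**Figure D4:**
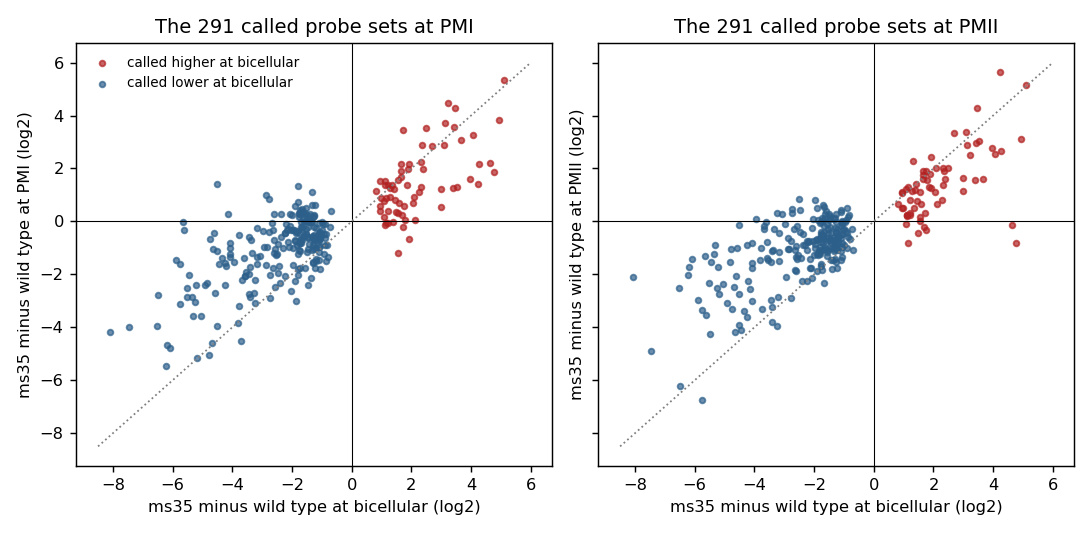
Log2 change, ms35 minus wild type, of the 291 probe sets called at the bicellular stage (horizontal axis) against their change at PMI (left) and PMII (right), red for those called higher and blue for those called lower; the dotted line marks equal changes. Most red points lie above 0 and most blue points below 0 at both stages, and the blue points are mostly smaller in size there, with medians of -0.80 and -0.90 against -1.89.

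The genes that differed at every labelled stage included both plastid and nuclear ones. ccsA fell by 2.31 at PMI and by 2.25 at PMII on the log2 scale, both called, close to its decrease at the bicellular stage. AT1G23960 rose by 5.33 at PMI and by 5.16 at PMII, and WSD1 and ETFBETA were higher at both as well, WSD1 by 1.66 and 1.58 and ETFBETA by 1.89 and 1.77. AT2G27740 fell by 4.00 at PMI and by 4.90 at PMII, less than at the bicellular stage, a gap that did not pass in the test of the difference given below (-3.0, adjusted p = 0.0531).

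Other genes were highest in wild type at the bicellular stage. ACLA-2 lay between 214 and 246 on all 6 ms35 arrays and between 196 and 234 on the 4 wild type arrays labelled PMI or PMII, so that only the wild type bicellular arrays, at 602 and 639, stood out. AT1G66810 had 34.0 and 21.3 in ms35 at PMI, against 20.4 and 37.6 in wild type, and 20.3 and 19.5 in ms35 at PMII, against 42.5 and 66.2 in wild type. GUT2 lay between 34.1 and 46.2 on the ms35 arrays of both other stages and between 34.9 and 58.8 on the wild type arrays. In each of the 3 genes the ms35 arrays showed no such peak at the bicellular stage. In the test of the difference between stages given below, ACLA-2 passed, while AT1G66810 (-4.98, adjusted p = 0.0531) and GUT2 (-1.85, adjusted p = 0.369) did not.

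Across the 225 lower probe sets this shape was common: in 130 (57.8%) both wild type bicellular arrays exceeded all 4 other wild type arrays, against 8.30% of all tested probe sets. The calls were made with those same wild type arrays, so this share describes the called set and is no test. The matching count for ms35, both bicellular arrays above the 4 other mutant arrays, was 6 (2.67%), against 5.89% of all tested probe sets.

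**Figure D5:**
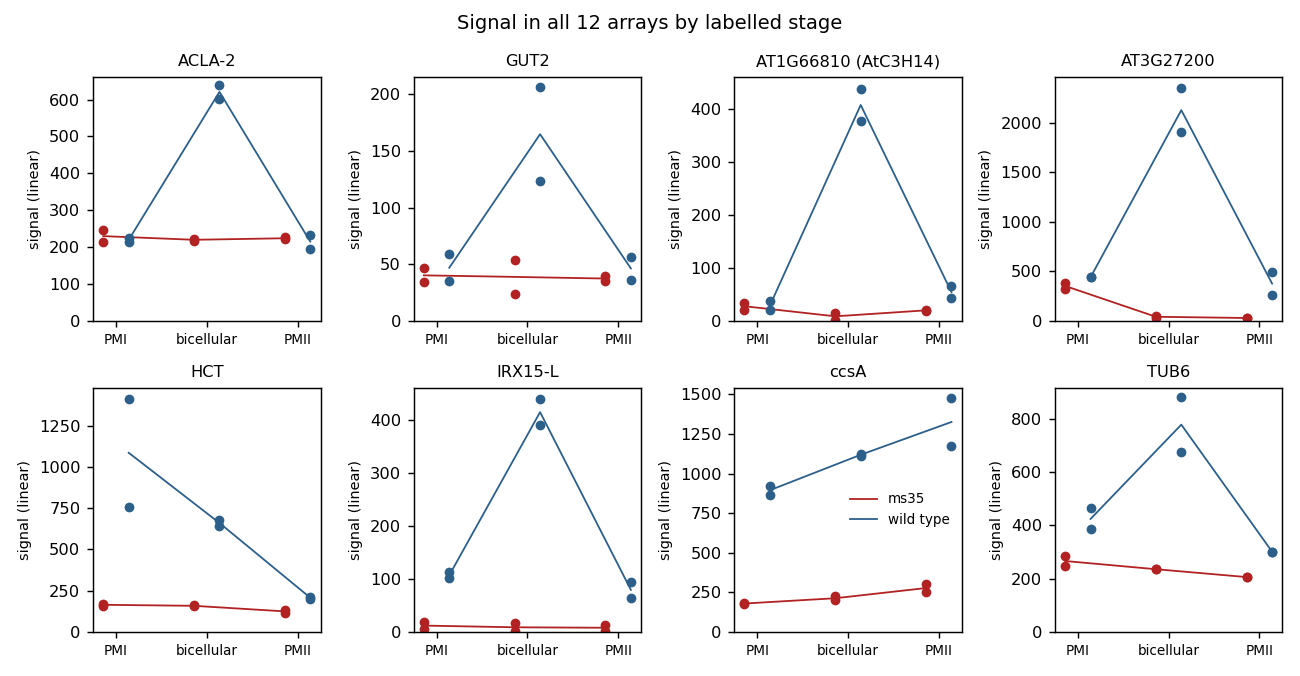
Signal on a linear axis from 0 for 8 genes on all 12 arrays, by labelled stage, with ms35 in red to the left of wild type in blue; points are arrays and lines join the means of 2. Wild type is highest at the bicellular stage for ACLA-2, GUT2, AT1G66810, AT3G27200, IRX15-L and TUB6; ms35 has no such maximum there, AT3G27200 having its highest ms35 values at PMI (318 and 387, against 439 and 440 in wild type), and ccsA is lower in ms35 at each stage.

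Whether the genotype difference at the bicellular stage departed from the mean of those at PMI and PMII was tested as an interaction in the same model. It passed for 4 of 16464 probe sets (0.0243%), all lower, with 1309 at an unadjusted p under 0.05. AT3G27200 had -3.70 ± 0.36 (adjusted p = 0.00439), 257896_at -4.94 ± 0.64 (0.0391), AT3G06035 -2.16 ± 0.30 (0.0400) and ACLA-2 -1.55 ± 0.21 (0.0400). AT3G06035 had 344 and 294 in ms35 at the bicellular stage, against 1089 and 1128 in wild type. At PMI the order was the opposite and called, with 318 and 374 in ms35, against 157 and 114 in wild type (1.35, adjusted p = 0.0135). The number that passed was between 0 and 25 over the alternatives.

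None of the tested markers of other tissues and cells was called by limma at the bicellular stage. At an unadjusted p under 0.05 stood 1 of 12 late pollen genes, 1 of 5 tapetum genes and 0 of 3 green tissue genes, against 1762 of all 16464 tested probe sets (10.7%). So did SPL, the 1 tested marker of anther and stamen. It had 133 and 97.4 in ms35, against 187 and 172 in wild type (-0.64, limma adjusted p = 0.335). The tested markers of the male germ line (1) and of carpel and perianth (2) did not. The 12 tested late pollen genes, of 15 listed, had a median change of 0.68, and 10 were positive. Their summed signal was 708 and 1605 in ms35, against 771 and 507 in wild type, and 2687 to 3996 on the arrays labelled PMI. In 11 of the 12 the highest of the 4 bicellular values was that of ms35 replicate 2, including AtVEX1, a marker of the vegetative pollen cell, with 59.2 and 650 in ms35 and 122 and 41.4 in wild type (1.44 ± 0.78, adjusted p = 0.566). Without ms35 replicate 1, which leaves that array as the only mutant one, AtVEX1 and AT4G39110 passed (adjusted p = 0.00718 and 0.0383). The higher summed late pollen signal was thus that of 1 mutant array, although in 3 of the 12 genes both ms35 arrays exceeded both wild type arrays. The part of this signal in the results above was not tested.

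Of 25 listed genes of the tapetum, a nutritive layer around the pollen, 5 were tested, and they summed to 3833 and 1783 in ms35, against 2940 and 4285 in wild type, with a median change of 0.02. ms35 replicate 2 was lowest of the 4 arrays in 4 of the 5. AT5G62080, the most changed of them, had 442 and 161 in ms35, against 574 and 550 in wild type (-1.07 ± 0.37, adjusted p = 0.258). The 3 tested genes of green tissue summed to 3433 and 1857 in ms35, against 2136 and 1938 in wild type, so ms35 replicate 1 was the highest array there. In neither list did the 2 genotypes separate as a whole.

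Several gene groups known from anther opening and its hormones held no call. By limma, none of 8 tested auxin genes passed (1 at an unadjusted p under 0.05), and GH3.3, which conjugates auxin to amino acids, had 1307 and 442 in ms35 and 333 and 170 in wild type (1.67 ± 0.61, adjusted p = 0.299). None of 4 flavonoid genes passed (1 unadjusted). ADPG1, a polygalacturonase of dehiscence, had 42.3 and 86.7 in ms35 and 14.6 and 28.0 in wild type (1.48 ± 0.62, adjusted p = 0.392). None of 12 tested expansins, 9 glycosyl hydrolases of family 9, 14 MADS-box genes or 12 nitrate and peptide transporters was called, with 1 in each group at an unadjusted p under 0.05. None of 13 dehydrin and LEA genes was called, with 4 unadjusted. Over all tested probe sets 10.7% had an unadjusted p under 0.05. GH9B5, of family 9, passed with only the bicellular arrays in the fit (1.69, adjusted p = 0.0465), and AT2G46140, a LEA gene, passed without ms35 replicate 1 (1.52, adjusted p = 0.0353). The share called over all tested probe sets was 1.77%. The listed genes of jasmonate synthesis and of cell death had no named probe set and were not analysed here.

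Called genes were spread over all 5 chromosomes, and the share called varied between stretches of locus numbers. Locus numbers follow the order of genes along each chromosome. Between AT1G20000 and AT1G24999, 10 of 198 tested loci were called (5.05%), 8 lower and 2 higher, against 136 of 8998 over all loci (1.51%). AT1G23960, which rose most among single-gene probe sets, and AT1G24030, which fell by 6.18, both lie in this stretch. Between AT3G55000 and AT3G59999, 8 of 192 were called (4.17%). These 2 stretches were picked for having the highest shares, and AT1G40000 to AT1G44999 followed with 2 of 49 (4.08%). The shares are descriptions and were not tested, so they do not show clustering.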

How the data were processed

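RNA of anthers with filaments was measured on 12 ATH1 arrays, 2 for each of 6 groups of genotype and labelled stage. The deposited values are intensity per probe set on a linear scale; MAS5 and GCOS are named as tools, per the submitters' processing notes, and no version is stated in the sources used here. The mean after trimming 2% at each end was 100.01 on each array, and the medians lay between 37.3 and 45.3, so arrays had been scaled to a common mean and not to equal quantiles. Precision is set by having 2 arrays per group.

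The 64 control probe sets among 22810 were dropped. Signals were transformed as log2(signal + 2.23), where 2.23 is the 10th percentile of all values. Probe sets above 25.5, the 40th percentile, on at least 2 arrays were tested (16464). limma 3.58.1 (R 4.3.3, statmod 1.5.0) fitted the 6 group means to all 12 arrays, with an intensity trend and 6 residual degrees of freedom. Contrasts were ms35 minus wild type at each stage, and that at the bicellular stage minus the mean of the others. On simulated data for the bicellular contrast, 100 of 16464 probe sets were changed by each size. There, 50% of log2 changes of 2 and 8% of changes of 1 were recovered, with 2 false calls among 60. These figures describe the simulated data alone. How closely the simulated spread resembled that of the real arrays was not tested, so the figures give no error rate for the real calls.

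By the probe annotation, 13513 probe sets have a single gene, 503 have more than 1 and 8730 have none. Names and locus order came from the TAIR10.1 gene table, which held 13436 of the single-gene ones; no name was taken from a probe set with more than 1 gene. Named genes were MYB26, NST1 and NST2 (where present), then the 20 largest changes each way among called single-gene probe sets whose groups did not overlap, the 8 smallest interaction p, and up to 6 called (or at most 2 other) members of each list or family; the text names fewer. Outside the rule, genes called with a symbol, 4 probe sets without a gene, and a few list members (IRX15, TBL34, GUT1, ACLA-3, AtVEX1, AT4G39110, rpl16, rpl22, rpl36) were chosen after their values were seen. A gene with several probe sets is represented in its list by the brightest. The comparison, the lists and the families were chosen with earlier results of these data known. The families of ATP-citrate lyase, tubulin, MAP65 and plastid-encoded genes were not among those first planned. Promoter motifs were not analysed here. The main fit did not use replicate numbers as pairs. Deviations from group means correlated at -0.07 between the bicellular groups and between -0.13 and 0.18 over all pairs of groups. Such correlations cannot exclude that equal replicate numbers were handled together. Alternatives were other normalizations, pseudocounts, filters, variance models, thresholds, a replicate block, only the bicellular arrays, and leaving out each array.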

Additional observations from a re-analysis of the deposited data

Results flagged for a closer look

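The genotype difference at the bicellular stage differed from the mean of those at PMI and PMII in the interaction test of limma for 4 probe sets. The differences of differences were -3.70 for AT3G27200 (adjusted p = 0.00439), -4.94 for 257896_at (0.0391), -2.16 for AT3G06035 (0.0400) and -1.55 for ACLA-2 (0.0400) on the log2 scale, ms35 minus wild type.

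In 5 of the 70 named and called probe sets, the genotypes did not overlap at another stage and differed there in the opposite direction. Groups of 2 arrays often do not overlap: at the bicellular stage 40.7% of all tested probe sets did not, in either direction. The share with opposite directions at 2 stages was not counted over all tested probe sets. Of the 5, AT3G06035, AT3G45850 and AT3G23840 were named for a small interaction p, AT3G23840 also for its family. That choice favours opposite directions, so the count is no test. For 4 of the 5 genes the other stage was PMI. AT2G18340 rose at the bicellular stage, with 19.7 and 41.8 in ms35, against 5.80 and 6.04 in wild type, and its log2 difference at PMI was -0.67. AT3G06035 fell at the bicellular stage and had 1.35 at PMI. AT3G45850 fell at the bicellular stage, with 82.5 and 76.8 in ms35, against 297 and 260 in wild type, and had 0.30 at PMI. AT3G23840 fell at the bicellular stage and had 0.28 at PMI. ACLA-1 fell at the bicellular stage and had 0.50 at PMII. AT5G62080, which was not called, had -1.07 at the bicellular stage and 0.85 at PMI, where its arrays were also on opposite sides. The difference between the 2 stages alone was not tested for these 6 genes, and of the other-stage values that of AT3G06035 passed (adjusted p = 0.0135).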

How the results depend on the processing

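Over 25 alternatives, the 291 calls at the bicellular stage became 157 with only the bicellular arrays in the fit (29 higher, 128 lower), 140 at an adjusted p under 0.01, and 97 to 287 when 1 array was left out. All 70 named and called probe sets kept their direction wherever they were tested, and 25 kept their call in all 23 alternatives of setting or array; 40 lost it without wild type bicellular replicate 2, 32 without wild type bicellular replicate 1, 26 without either ms35 bicellular array, and 27 with only the bicellular arrays. At PMI, 335 calls became 179 without the intensity trend and 127 to 359 when 1 array was left out; at PMII, 156 became 57 and 45 to 178. The interaction count of 4 became 2 with median centring, 1 without a pseudocount, 25 with a pseudocount of 16, 9 with a stricter filter, 12 with robust empirical Bayes, 0 without the intensity trend (limma) and 0 to 7 when 1 array was left out. Of the 5 xylan genes, 2 calls became 4 with a pseudocount of 16 (IRX15 and TBL34 added), 1 without the intensity trend, and 1 to 3 when 1 array was left out. The late pollen count was 0 to 2 and the tapetum count 0 to 1 when 1 array was left out, above 0 without ms35 bicellular replicate 1. With the replicate number as a replicate block, 301 were called (72 higher, 229 lower), with 3 calls among the xylan genes (IRX15 added). The cause of these shifts was not tested. Leaving out 1 array could not reverse the direction of a call, because no called probe set had overlapping groups. That directions held there is therefore no test of the calls. Signals under the low-signal limit carry little information on the size of a change.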
